A study of Mus musculus with 4 samples.

Results

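Melanocytes, the pigment cells of skin, were followed through 10 genes: 7 of the pigment machinery (Tyr, Tyrp1, Dct, Pmel, Mlana, Slc45a2 and Oca2) and 3 of the lineage (Mitf, Kit and Sox10). They were found by symbol among the 19938 genes of the array that have a probe set naming a single gene. Where a gene had several such probe sets, the brightest on average over the 4 arrays stood for it. Each of the 10 genes was found, and each was among the 14953 genes tested after the dimmest 25% had been left out.

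The 4 arrays hold total RNA of skin from female mouse embryos at E17.5, late in gestation, with RNA of 2 mice on each array. The 2 control arrays are labelled CB6F1 and carried the transgene TRE-Ovol2-Flag without a driver, or were wild type. The 2 Ovol2 BT arrays are labelled FVB/N and carried TRE-Ovol2-Flag together with K5-tTA, a transactivator expressed from the promoter of keratin 5, a gene of basal keratinocytes. The study asks how overexpression of the transcription factor Ovol2 in the epidermis changes its differentiation. The protocols speak of littermates, yet the strain labels differ between the groups, so strain and transgene cannot be told apart. As background, FVB/N is an albino strain that carries a mutation of Tyr, and CB6F1 is a cross of BALB/c, itself albino, with C57BL/6, which is not. Whether the probes of Tyr meet a strain difference was not analysed here.

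Melanocytes descend from the neural crest, reach the epidermis as melanoblasts and settle in the basal layer and in hair follicles. Mitf, kept active by Sox10 upstream and by Kit signalling, switches on the genes of melanin synthesis. Tyrosinase and its relatives Tyrp1 and Dct then make the pigment on fibrils of Pmel inside melanosomes, whose ion and proton transport depends on Slc45a2 and Oca2.

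Levels are the deposited linear intensities, without a detection call. Differences are Ovol2 BT minus control in log2(intensity + 16), with the standard error (SE) and the Benjamini-Hochberg adjusted p of limma over all tested genes, and genes with an adjusted p below 0.05 are termed called. The added 16 makes the change of a dim gene look smaller than it is. With 2 arrays a group, an exact permutation test of a single gene cannot go below p = 0.333, so only the fit across all genes was used. The median intensity per array was 123 to 132. Ovol2, the transgene's product, had intensities of 360 and 161 in control skin, against 4367 and 3893 in Ovol2 BT, as the labels require. Skin markers were abundant on each array, with Krt1 between 9371 and 11944 and Col1a1 between 7317 and 9027.

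Regulatory sequence upstream of the members was read from RefSeq promoter windows of GRCm38.p6, a C57BL/6J genome. A window covers the 250 bases before an annotated transcript start, and 6 of the 10 genes have an entry (Tyr, Tyrp1, Dct, Oca2, Mitf and Kit). Pmel, Mlana, Slc45a2 and Sox10 have no entry in the table. The E-box CATGTG, the core of the element through which Mitf is known to act on pigment genes, was searched on both strands. The sequences of the 3 enzyme genes and of Oca2 are shown because they hold this core, while their differences in the arrays ranged from the largest fall to a value above 0. Capitals mark CATGTG or, on the opposite strand, CACATG. Only bases before the outermost annotated start of a gene are printed, except for Tyrp1, where the match lies behind such a start and a site of 30 bases is given. Tyr lies on the minus strand at chr7:87493513-87493762, Tyrp1 on the plus strand at chr4:80834155-80834184, Dct on the minus strand at chr14:118052247-118052496 and Oca2 on the plus strand at chr7:56239509-56239592. Each is written 5′ to 3′ on the strand of the gene.
Tyr: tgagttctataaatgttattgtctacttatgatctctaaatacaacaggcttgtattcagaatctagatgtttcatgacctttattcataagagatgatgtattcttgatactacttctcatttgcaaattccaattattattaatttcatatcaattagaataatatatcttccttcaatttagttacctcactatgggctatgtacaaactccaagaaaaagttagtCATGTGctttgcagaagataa
Tyrp1: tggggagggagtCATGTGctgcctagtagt
Dct: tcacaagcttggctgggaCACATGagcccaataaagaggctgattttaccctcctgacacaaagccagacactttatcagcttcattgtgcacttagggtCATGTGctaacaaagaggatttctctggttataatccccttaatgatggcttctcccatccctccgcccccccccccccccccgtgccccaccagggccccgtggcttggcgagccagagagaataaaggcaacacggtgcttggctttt
Oca2: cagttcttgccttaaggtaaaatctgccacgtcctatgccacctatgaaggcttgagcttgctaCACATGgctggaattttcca

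Counted from the start that defines each window, the core began 21 bases before it in Tyr and 46 bases before it in Tyrp1. In Dct it was found at 232 and 150 bases before the start, and in Oca2 at 186 bases. The window of Oca2 belongs to an inner start, and the same core begins 20 bases before the outermost annotated start of the gene. No window of Mitf (3 starts) or Kit (2 starts) held these letters. Among all 32851 windows, 12.3% held CATGTG and 3.25% the longer TCATGTG, which contains it and occurred in Tyr, Tyrp1 and Dct but not in Oca2. The palindromic E-box CACGTG was present in 6.02% of windows and in no window of the 6 members with an entry. Around the core, Tyr and Tyrp1 share AGTCATGTGCT, a stretch found in 7 of the 32851 windows (0.0213%), these 2 included. A match describes the letters of a window and is no evidence of binding.

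Of the 10 genes, 9 had a log2 difference below 0, and Tyr was called lower. Over all genes tested, 0.963% were called, 0.615% higher and 0.348% lower, and 55.6% lay below 0. In 7 of the 10 genes each Ovol2 BT array lay below each control array, as in 21.9% of all genes tested, and in 0 of the 10 each lay above (20.4% of all genes). At an unadjusted p under 0.05, 4 of the 10 were lower (Tyr, Dct, Mlana and Slc45a2), against 5.24% of all genes, and 0 were higher, against 5.11%. The median difference was -0.54 over the 7 machinery genes and -0.28 over the 3 lineage genes, beside -0.04 over all tested genes. In bulk skin, fewer pigment cells and less RNA per pigment cell cannot be told apart.

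**Figure D1:**
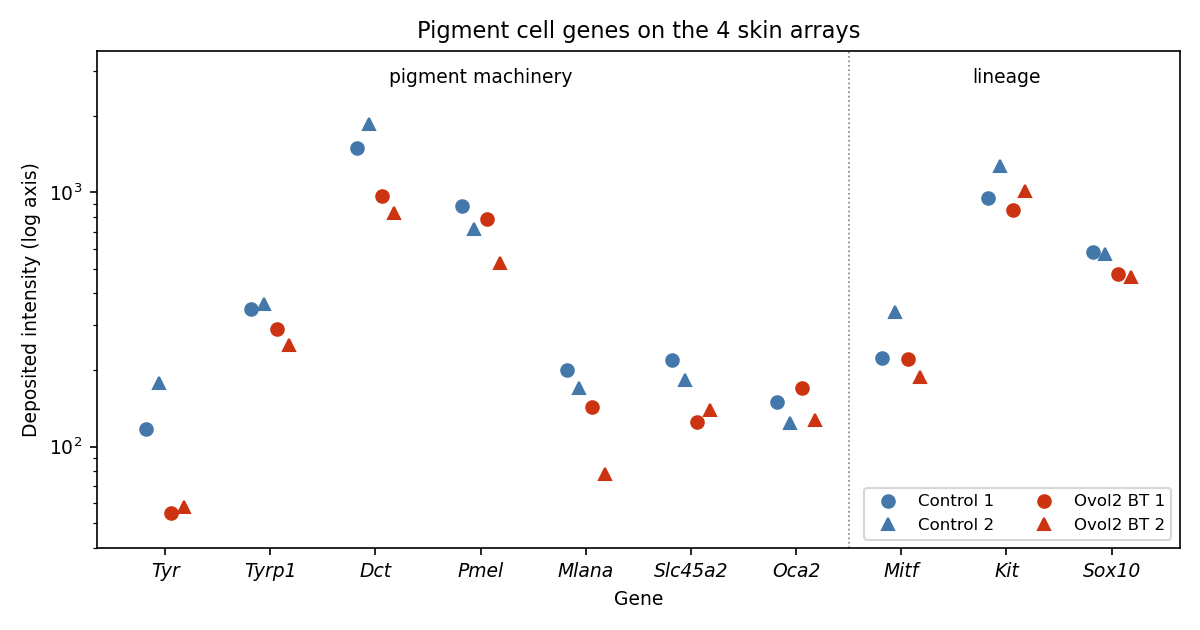
Deposited intensity (log axis) of the 10 pigment cell genes on each array; blue marks are the 2 controls, red marks the 2 Ovol2 BT arrays, and circles and triangles are replicates 1 and 2. The red marks of Tyr, at 54.6 and 58.0, lie below the blue ones at 117 and 178, while those of Pmel, Oca2 and Kit overlap.

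Tyr encodes tyrosinase, the rate-limiting enzyme of melanin synthesis, and showed the largest fall of the 10 genes. Its probe set (10565422) gave intensities of 117 and 178 in control replicates 1 and 2 and of 54.6 and 58.0 in Ovol2 BT. The Ovol2 BT arrays were nearly equal, and the spread lay between the controls. Both Ovol2 BT values were dim, below the median intensity of any array (123 to 132). They lay within the range of Gpr143 (36.7 to 61.7), a gene too dim to be tested. Whether a floor brought them close was not tested. Tyr fell by 1.15 in log2, or 2.22-fold (SE 0.20, 95% interval -1.60 to -0.70, adjusted p = 0.0328). Without a variance trend in the fit the call ended (adjusted p = 0.0809), and with the dimmest 50% of genes left out Tyr was no longer tested.

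Dct, dopachrome tautomerase, acts downstream of tyrosinase and already marks melanoblasts. Its intensities (probe set 10422249) were 1493 and 1861 in control skin, against 968 and 828 in Ovol2 BT, so the groups did not overlap. The difference of -0.88 (SE 0.21, 95% interval -1.37 to -0.40) did not pass the test (adjusted p = 0.137). Tyrp1, which stabilises tyrosinase and takes part in making eumelanin, had intensities of 349 and 364 in control skin, against 290 and 250 in Ovol2 BT (probe set 10505614). Its groups were separated too, by a smaller step of -0.38 (SE 0.21, 95% interval -0.85 to 0.08, adjusted p = 0.568). The 3 relatives thus differed in size: the interval of Tyr ended at -0.70 and that of Tyrp1 reached above 0, but the difference between the genes was not tested.

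Pmel forms the fibrils on which melanin is laid down. Its intensities (probe set 10367379) were 886 and 717 in control skin, against 782 and 525 in Ovol2 BT, and the groups overlapped. The difference was -0.31 (SE 0.25, 95% interval -0.88 to 0.26, adjusted p = 0.683), and it ranged from -0.59 to -0.028 with 1 array left out. Mlana, a small melanosome protein that binds Pmel, had intensities of 200 and 170 in control skin, against 143 and 78.4 in Ovol2 BT (probe set 10462435). The groups did not overlap, but Ovol2 BT replicate 2 lay far below replicate 1. The difference of -0.71 (SE 0.25, 95% interval -1.28 to -0.14) did not pass the test (adjusted p = 0.370). Its size rested on the Ovol2 BT array used: without replicate 1 it was -1.08 and was called (adjusted p = 0.0315), and without replicate 2 it was -0.33.

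Slc45a2 is a transporter thought to keep the melanosome from turning acidic, as tyrosinase requires. Its intensities (probe set 10423098) were 219 and 182 in control skin, against 125 and 139 in Ovol2 BT, without overlap. The difference was -0.54 (SE 0.19, 95% interval -0.97 to -0.11, adjusted p = 0.365). Oca2, a chloride channel of the melanosome with a similar role in its pH, was the only member with a difference above 0. Its intensities (probe set 10553743) of 150 and 124 in control skin, against 170 and 128 in Ovol2 BT overlapped, at a difference of 0.10 (SE 0.20, 95% interval -0.35 to 0.56, adjusted p = 0.872). In each group replicate 1 was the higher array for Oca2, and its difference took either sign, from -0.085 to 0.29, with 1 array left out.

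None of the 3 lineage genes was called. Mitf, the transcription factor that directs melanocyte fate, had intensities of 223 and 338 in control skin, against 221 and 188 in Ovol2 BT (probe set 10540248). Control replicate 1 was close to Ovol2 BT replicate 1, and the difference of -0.41 (SE 0.24, 95% interval -0.95 to 0.14, adjusted p = 0.594) rested on control replicate 2. It was -0.12 without control replicate 2 and -0.69 without control replicate 1. A second Mitf probe set, between 4.24 and 8.75 on all 4 arrays, was too dim to read.

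Sox10, the neural crest factor upstream of Mitf, was the tightest of the 10 genes. Its intensities (probe set 10430458) were 584 and 573 in control skin, against 478 and 466 in Ovol2 BT. The groups were apart by more than the spread within either, at a difference of -0.28 (SE 0.20, 95% interval -0.75 to 0.18, adjusted p = 0.649), where limma's SE borrows the spread of other genes of similar level. Kit, the receptor that melanoblasts need to migrate and survive, had intensities of 954 and 1266 in control skin, against 854 and 1012 in Ovol2 BT (probe set 10522530). These overlapped, and the difference was -0.24 (SE 0.23, 95% interval -0.75 to 0.27, adjusted p = 0.728). Without control replicate 1 it was -0.44, and without control replicate 2 it was -0.036.

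**Figure D2:**
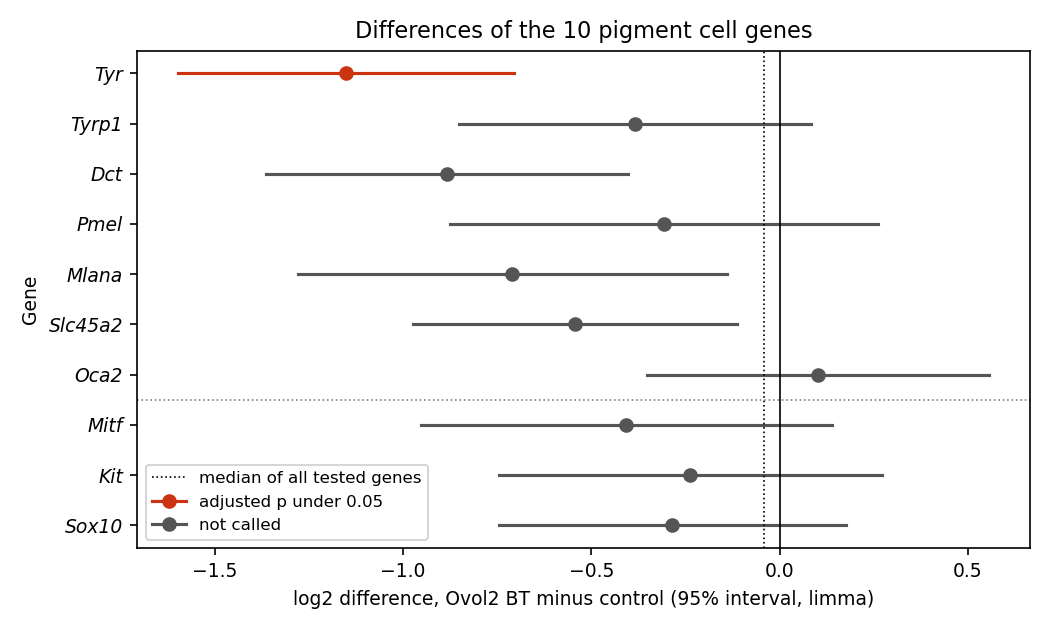
Log2 difference (Ovol2 BT minus control) of each gene with its unadjusted 95% interval from limma; red marks a call, grey none, and the dotted line the median of all tested genes at -0.04. The interval of Tyr runs from -1.60 to -0.70, and those of Tyrp1, Pmel, Oca2 and the 3 lineage genes include 0.

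The members did not vary as 1 block between replicates. Tyr, Tyrp1, Dct, Mitf and Kit were higher in control replicate 2 than in control replicate 1, and Pmel, Mlana, Slc45a2, Oca2 and Sox10 were lower there. In Ovol2 BT, Tyr, Slc45a2 and Kit were higher in replicate 2 and the other 7 in replicate 1.

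Enzyme genes were set against lineage genes within each array, a quantity that centring of whole arrays cannot move and of which only the change between groups can be read. The mean log2 level of Tyr, Tyrp1 and Dct minus that of Mitf, Kit and Sox10 was -0.31 and -0.32 in control skin, against -0.75 and -0.87 in Ovol2 BT. The controls were alike and both Ovol2 BT arrays lay lower, by 0.50 on average. With all 7 machinery genes the same quantity was -0.60 and -0.92 in control skin, against -0.87 and -1.14 in Ovol2 BT, which overlapped. Against Sox10 alone, the log2 level of Tyr moved from -2.17 and -1.60 in the controls to -2.81 and -2.70 in Ovol2 BT. That of Dct moved from 1.33 and 1.67 to 0.996 and 0.81, without overlap. That of Tyrp1, the remaining enzyme, overlapped, with -0.72 and -0.63 in control skin, against -0.69 and -0.86 in Ovol2 BT. That of Pmel overlapped too, with 0.59 and 0.32 in control skin, against 0.69 and 0.17 in Ovol2 BT. On average over the arrays, the change against Sox10 was -0.42 for Mlana, with overlap, -0.26 for Slc45a2 and 0.39 for Oca2. The medians of the 7 machinery and 3 lineage differences were 0.26 apart, less than the pooled SD of 0.28 between arrays of a group in the same quantity. Without control replicate 1 they were 0.016 apart in the opposite direction, and without Ovol2 BT replicate 2 the gap was -0.037. These values describe a chosen set and carry no test.

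Of the other melanosome genes tested, 10 lay below 0 and 4 above, where 55.6% of all tested genes lay below 0. Of 15 listed, 14 were tested and 0 were called by limma in either direction. At an unadjusted p under 0.05, 4 were lower and 1 was higher, against 5.24% and 5.11% of all genes, and the median difference was -0.41. The ocular albinism receptor gene Gpr143 was too dim to be tested, with intensities between 36.7 and 61.7. Rab27a, the GTPase that ties melanosomes to the actin motor Myo5a, had intensities of 359 and 351 in control skin, against 116 and 188 in Ovol2 BT. Its difference of -1.18 (SE 0.24) just missed the threshold (adjusted p = 0.0775). It was called with the dimmest 50% of genes left out (adjusted p = 0.0295). The difference was -1.16 without control replicate 1 and -1.19 without control replicate 2. It was -1.49 without Ovol2 BT replicate 2 and -0.86 without Ovol2 BT replicate 1.

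Bace2, a protease that cleaves Pmel, had intensities of 345 and 322 in control skin, against 233 and 179 in Ovol2 BT (-0.66, SE 0.21, adjusted p = 0.314). Slc7a11, a cystine transporter that favours yellow pheomelanin and is widely expressed outside pigment cells, was higher, with 172 and 81.6 in the controls against 278 and 240 in Ovol2 BT. Its difference of 1.02 (SE 0.29) was not called (adjusted p = 0.241). Without control replicate 1 it was 1.49, and without control replicate 2 it was 0.55. The part of other cell types in the values of Rab27a, Bace2 and Slc7a11 was not tested. The CATGTG core, in 12.3% of all windows, occurred in windows of Trpm1, Slc24a5 and Slc7a11, 3 of the 12 listed genes with an entry. For that reason, and with their values known, Trpm1 and Slc24a5 are named here. Trpm1, a cation channel gene of melanocytes, had intensities of 93.1 and 97.7 in control skin, against 73.6 and 55.8 in Ovol2 BT (-0.47, SE 0.16, adjusted p = 0.341). Slc24a5, a potassium-dependent sodium and calcium exchanger of the pigment organelle, had 307 and 334 against 263 and 184 (-0.51, SE 0.23, adjusted p = 0.492). Both lay lower in each Ovol2 BT array, as most of the machinery genes did, while Slc7a11, which holds the same core, lay higher in each. The longer TCATGTG, in 3.25% of all windows, also occurred in windows of Trpm1, Slc24a5 and Slc7a11. Of 17 genes for the assembly of lysosome-related organelles, which many cell types use (the Hps and Bloc1s genes among them), 15 overlapped between groups. In 1 gene each Ovol2 BT array lay below each control array and in 1 above, against 21.9% and 20.4% of all genes tested. None of the 17 was called, none passed an unadjusted p of 0.05 in limma, and their median was -0.02. The smallest p belonged to Hps5 (-0.33, adjusted p = 0.616), Bloc1s3 (-0.37, adjusted p = 0.657) and Dtnbp1 (0.21, adjusted p = 0.735), all subunits of complexes that sort cargo to the organelle.

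Among 13 further regulators of melanoblasts and their crest precursors, 0 were called by limma, and the median was -0.19. At an unadjusted limma p under 0.05, 1 was lower, against 5.24% of all genes tested. That gene was Pax3, which acts with Sox10 on Mitf, with intensities of 187 and 182 in control skin, against 107 and 94.8 in Ovol2 BT. The replicates of Pax3 were close, and its difference of -0.78 (SE 0.17, 95% interval -1.17 to -0.39) was not called (adjusted p = 0.101). Tfec, a relative of Mitf, was dim and overlapped, with 65.8 and 119 in control skin, against 51.9 and 75.1 in Ovol2 BT (-0.42, SE 0.24, adjusted p = 0.589). Its difference rested on control replicate 2: it was -0.057 without that array and -0.78 without control replicate 1. Snai2, a zinc finger factor of migrating crest cells, stood at 873 and 1090 against 1169 and 1305 (0.34, SE 0.21, adjusted p = 0.613). Ednrb, the endothelin receptor of melanoblasts, was named for its role and overlapped, with 478 and 621 in control skin, against 493 and 595 in Ovol2 BT (-0.01, SE 0.23, adjusted p = 0.991).

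Of 14 genes for signals that act on pigment cells, 1 was called, in the lower direction, against 0.348% of all genes tested. Dkk1, a secreted Wnt inhibitor known to lower pigmentation in skin, had intensities of 677 and 671 in control skin, against 251 and 186 in Ovol2 BT. It fell by 1.57 (SE 0.22, 2.97-fold, adjusted p = 0.0138). The ligands of the melanoblast receptors, with Mc1r and agouti, are named for their role, and none of them was called. Kitl, the ligand of Kit, had 502 and 801 in control skin, against 525 and 596 in Ovol2 BT (-0.18, SE 0.26, 95% interval -0.76 to 0.41, adjusted p = 0.824). Edn3, the ligand of Ednrb, had 367 and 380 against 367 and 343 (-0.07, SE 0.20, 95% interval -0.53 to 0.39, adjusted p = 0.914). Mc1r, the melanocortin receptor that selects the type of melanin, had 387 and 382 against 361 and 363 (-0.08, SE 0.20, adjusted p = 0.90). Its antagonist agouti (symbol a) had 132 and 120 against 186 and 133 (0.29, SE 0.20, adjusted p = 0.644). By the smallest p among those not called, Hgf (0.44, adjusted p = 0.437), Corin (-0.51, adjusted p = 0.446) and Nrg1 (0.34, adjusted p = 0.560) followed. The median over the 14 genes was -0.08.

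**Figure D3:**
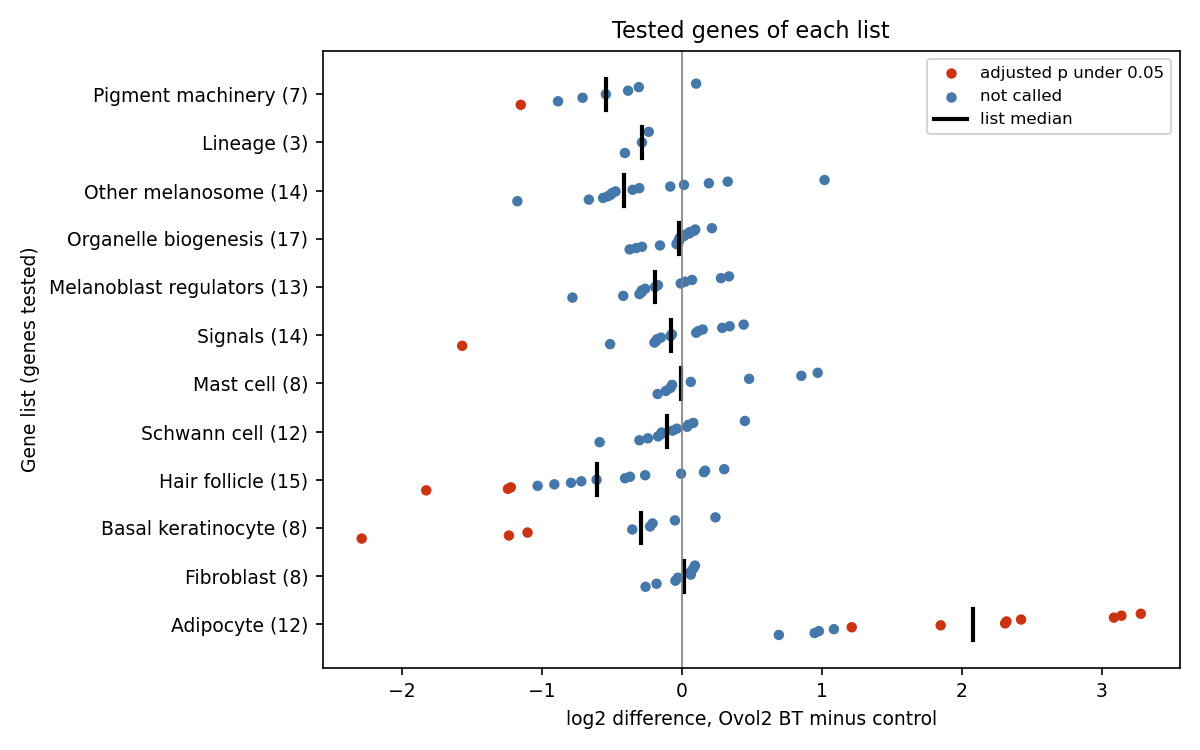
Log2 difference (Ovol2 BT minus control) of each tested gene by list, with the number tested in brackets; red points were called, blue ones were not, and black bars are list medians. The bars of the machinery genes (-0.54), the other melanosome genes (-0.41) and the hair follicle genes (-0.61) lie to the left of 0, and that of the adipocyte genes (2.08) to the right.

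Kit and Mitf are also genes of mast cells, and Sox10 is also a gene of Schwann cells. Of 10 mast cell markers 8 were tested and 0 were called by limma. At an unadjusted limma p under 0.05, 3 were higher and 0 lower, against 5.11% and 5.24% of all genes tested. The median of the 8 was -0.0033. Together they summed to 13203 and 15412 in control skin, against 15182 and 15901 in Ovol2 BT, with overlap. The protease genes Mcpt4 (0.85, adjusted p = 0.265), Tpsab1 (0.97, adjusted p = 0.423) and Tpsb2 (0.48, adjusted p = 0.423) had the smallest p. Mcpt4 was called without control replicate 2 (1.19, adjusted p = 0.0427) and stood at 0.52 without control replicate 1 (adjusted p = 0.668). Tpsab1 was called without control replicate 1 (1.41, adjusted p = 0.00291) and without Ovol2 BT replicate 2 (1.49, adjusted p = 0.0411), and stood at 0.45 when Ovol2 BT replicate 1 was left out and at 0.53 when control replicate 2 was. Of 17 Schwann cell markers 12 were tested and 0 called. At an unadjusted p under 0.05, 1 of the 12 was lower and 0 were higher, against 5.24% and 5.11% of all genes tested. Their median was -0.11, and together they summed to 15384 and 12676 in control skin, against 12585 and 12667 in Ovol2 BT. Mal, a myelin protein gene (-0.59, adjusted p = 0.447), S100b (0.45, adjusted p = 0.506) and the neuregulin receptor gene Erbb3 (-0.30, adjusted p = 0.630) had the smallest p of that list. The part of either cell type in the values of Kit, Mitf and Sox10 was not tested.

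Genes of the hair follicle and of the basal layer, where pigment cells settle, were counted as well. Of 15 tested hair follicle genes 3 were called lower, against 0.348% of all genes tested: Lhx2 (-1.83), Msx2 (-1.24) and Edar (-1.22). Quantile normalization ended the call of Edar (adjusted p = 0.0538), as did leaving out Ovol2 BT replicate 2 (-1.12, adjusted p = 0.0563). Lef1, the Wnt effector of the hair germ, was not called (-1.03, adjusted p = 0.0653). A call appeared with the dimmest 50% of genes left out (adjusted p = 0.0298) and without Ovol2 BT replicate 1 (-1.13, adjusted p = 0.0381). Gli1, a target of hedgehog signalling, was not called (-0.91, adjusted p = 0.233), but was without that same array (-1.24, adjusted p = 0.0307), and was -0.58 without Ovol2 BT replicate 2. Hoxc13, a regulator of hair keratins, was not called (-0.79, adjusted p = 0.210). Hair follicle intensities summed to 15216 and 15465 in control skin, against 11925 and 10227 in Ovol2 BT. Of 8 genes of the basal layer, the keratin genes Krt15 (-2.29), Krt14 (-1.24) and Krt5 (-1.10) were called lower. The sum over the 8 was 25317 and 22777 in control skin against 13577 and 11497 in Ovol2 BT. In control skin these keratin genes were the brightest of the list, so they weighed most in the sum. In 4 of the 8 genes each Ovol2 BT array lay below each control array, against 21.9% of all genes tested. In the other 4 the groups overlapped. Without a variance trend the calls of Krt14 (adjusted p = 0.0524) and Krt5 (adjusted p = 0.0526) ended, as did that of Krt5 when arrays were centred on cell junction genes (-0.66, adjusted p = 0.0659). Trp63 (-0.35, adjusted p = 0.582), Col17a1 (-0.23, adjusted p = 0.728) and Itgb4 (0.24, adjusted p = 0.728) of the basal layer were not called. Of 12 adipocyte genes 8 were called higher, against 0.615% of all genes tested. The sums over the 12 were 7195 and 6148 in control skin against 20203 and 20004 in Ovol2 BT. No gene of the suprabasal keratinocyte (4 tested, median -0.18), fibroblast (8, median 0.02), skeletal muscle (8, median 0.22) or endothelial (5, median 0.19) lists was called by limma. At an unadjusted p under 0.05, 1 suprabasal gene was lower and 2 muscle genes were higher, against 5.24% and 5.11% of all genes tested. The part of these shifts in the pigment gene values was not tested.

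**Figure D4:**
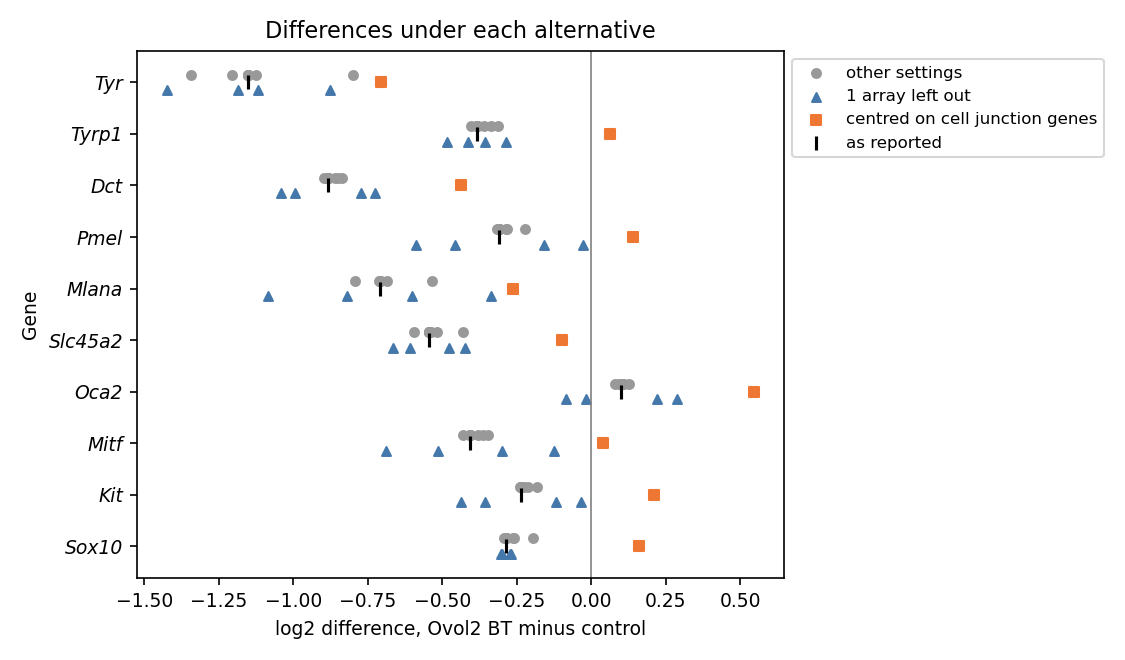
Log2 difference of the 10 genes as reported (black bar), with 1 array left out (blue triangles), under other settings (grey) and after centring on the cell junction list (orange squares). Tyr stays between -1.42 and -0.70. Tyrp1, Pmel, Mitf, Kit and Sox10 cross 0 under the junction centring, whose own genes were mostly lower in Ovol2 BT.

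The directions above were compared under other scalings. Quantile normalization and median centring kept the sign of each of the 10 members. Of 22 listed genes of cell junctions, 19 were tested, and 18 of these lay below 0 as reported, with a median of -0.29. The list is thus no neutral reference. Centring each array on the 20 of them measured raised the median of all genes from -0.04 to 0.41. Tyr (-0.70, adjusted p = 0.0262), Dct (-0.44), Mlana (-0.26) and Slc45a2 (-0.10) stayed below 0 there, and the other 6 members stood above 0. Relative to the shifted median of 0.41, Oca2 (0.55) was the only member above it.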

How the data were processed

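Skin RNA was hybridised to 4 Affymetrix whole-transcript arrays, grouped by the sample titles. Each probe set has a deposited intensity on a linear scale. The submitters' processing notes name PLIER 2.0 and Affymetrix Expression Console 1.1.1. Background correction, normalization and build: not given in the sources used here. Of 35557 probe sets, 21789 name 1 gene, 1621 several and 12147 none by the platform annotation; 21698 matched RefSeq (GRCm38.p6) by Entrez ID, with 0 symbols changed.

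Intensities were used as deposited, as log2(intensity + 16), with the 4985 genes of lowest mean left out. The group difference came from limma 3.58.1 (R 4.3.3; lmFit, then eBayes allowing the variance to follow the mean level), which had 2 residual degrees of freedom and a prior of 6.94. The procedure was tested on simulated data as a check of the code, and its power at differences of the size seen here is not given. The titles call arrays biological replicates; p-values measure the spread between these pools of 2 mice, whose small number limits the precision. Summaries used Python 3.11.15, pandas 2.3.3 and matplotlib 3.10.9.

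The members and lists were chosen with earlier results of these data known. Named are the 10 members, Ovol2, genes called in a list, up to 3 more of it with the smallest p, and those said to be named for their role or sequence. The adipocyte, suprabasal, fibroblast, muscle and endothelial lists are given as counts, without the names that rule would take. Krt1, Col1a1 and Gpr143 were named after their values were seen. The 15 alternatives are another pseudocount (1 or 64), filter, scaling, variance model or probe set rule, the replicate block, and each array left out.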

Additional observations from a re-analysis of the deposited data

How the results depend on the processing

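Over the 10 members, 134 of 145 values under the alternatives kept their sign and their side of the threshold. The count of members called was 0 with the dimmest 50% of genes left out, where Tyr, Mlana, Slc45a2 and Oca2 were not tested, and 0 without a variance trend; it lay between 1 and 2 with 1 array left out. The mean of all probe sets left Mitf untested. Leaving out 1 array gave 206 to 366 called genes in all (against 144 as reported; 366 without the first control and 249 without the second Ovol2 BT array) and a median of the machinery genes from -0.66 to -0.33; a lone array is then assumed to vary like the others. In the fits without either control array the variances were fully pooled, so no gene's own spread entered its p. Across the fits with 1 array left out, Oca2 ranged from -0.085 to 0.29 (-0.018 without control replicate 2) and Kitl from -0.51 to 0.15. Ednrb ranged from -0.19 to 0.18 (0.12 without Ovol2 BT replicate 1) and Bloc1s3 from -0.75 to 0.0031. Centring on cell junction genes, most of which were lower themselves, gave 2390 calls, in a fit whose variances were fully pooled. Of these calls, 2329 were higher and 61 lower (92 and 52 as reported). The medians of machinery and lineage genes were then -0.10 and 0.16, Tyrp1 stood at 0.062, Pmel at 0.14, Mitf at 0.040, Kit at 0.21, Sox10 at 0.16, Erbb3 at 0.14, Kitl at 0.27, Edn3 at 0.38, Ednrb at 0.44, Mc1r at 0.37, Hps5 at 0.12, Bloc1s3 at 0.074, Tfec at 0.028, Trp63 at 0.092 and Col17a1 at 0.22, and Slc7a11, Snai2, Hgf, Nrg1, agouti, Mcpt4, Tpsab1, Tpsb2 and S100b were called higher. Under quantile normalization Edn3 (0.015), Ednrb (0.083) and Mc1r (0.0015) had the opposite sign, and Ednrb (0.017) under median centring. With the replicate number as a block 671 genes were called (323 higher, 348 lower), among them 3 members: Tyr, Dct (adjusted p = 0.0122) and Mlana (adjusted p = 0.0457), and the calls gained Rab27a, Slc7a11, Bace2, Pax3, Mcpt4, Tpsab1, Lef1, Hoxc13 and Gli1. Across genes, arrays of 1 number deviated from their group means with a correlation of 0.41. The labels name no litter or batch for these numbers, and whether arrays of 1 number shared either was not tested.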
